A study of Sus scrofa domesticus with 6 samples.

Results

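The 9 genes described here are the transcription factors that take a cell of the gut epithelium into the enteroendocrine lineage: NEUROG3, NEUROD1, PAX6, PAX4, ISL1, INSM1, FEV, RFX6 and NKX2-2. They were found by exact match of the gene symbol, which gave 9 rows of 30352 named genes, and all 9 passed the filter on low counts that left 18197 genes to test. RNA was sequenced from small intestine of 6 wild-type Gottingen minipigs aged 6 months, with 2 animals in each of 3 groups. Controls were not irradiated. The IR animals received 15 Gy of cobalt gamma rays to the abdomen, and the IR_Pra animals received that exposure and pravastatin, a cholesterol-lowering statin, by mouth at 40 mg per day for 2 weeks. Intestine was sampled on day 14. The labels name the drug as Pra in one place and PS in another, and both were read as pravastatin. Neither the intestinal segment nor the sex of the animals is stated in the labels. The sample was whole tissue. Fewer enteroendocrine cells, less RNA per cell and a larger share of RNA from other cells thus cannot be told apart in any value below.

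Enteroendocrine cells are scattered hormone-secreting cells of the epithelium, renewed from crypt stem cells. A progenitor that switches on the basic helix-loop-helix factor NEUROG3, for a short time, becomes committed to the endocrine fate. NEUROG3 then activates a second tier that includes NEUROD1, a related helix-loop-helix factor, and INSM1, a zinc-finger repressor. The paired-box factors PAX4 and PAX6, the LIM homeodomain factor ISL1, the homeodomain factor NKX2-2, the winged-helix factor RFX6 and the ETS factor FEV then shape which hormone a cell makes.

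Libraries held between 48600424 and 73975174 counts. All 9 factors were scarce: their mean FPKM (reads scaled to transcript length and library depth) over the 6 libraries stood between the percentiles 11.7 and 29.7 of the genes tested. The endocrine granule protein CHGA and the intestinal factor CDX2, both named as a check on the sample, were read in every library. CHGA had between 106.9 and 301.7 CPM and CDX2 between 53.7 and 413. They do not identify the intestinal segment. CPM is the read count relative to a library size scaled by TMM factors. The IR 2 library stood apart in its epithelium: 19 general epithelial genes summed to 2011 CPM there, against 9244 to 11106 in the other 5 libraries. Values below are given as mean ± SD over n = 2 animals, and fitted log2 fold changes as value ± SE from edgeR's quasi-likelihood test with Benjamini-Hochberg adjustment over all genes tested.

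In unirradiated intestine the factors formed 2 tiers by level. On the FPKM scale, which allows comparison between genes, the control means were 1.56 ± 0.122 for NEUROD1, 1.47 ± 0.462 for INSM1, 1.33 ± 0.250 for FEV and 1.14 ± 0.140 for NKX2-2. The other 5 were lower, with 0.526 ± 0.168 for PAX4, 0.526 ± 0.0464 for PAX6, 0.486 ± 0.256 for RFX6, 0.345 ± 0.162 for NEUROG3 and 0.319 ± 0.150 for ISL1. The lowest control library of the upper tier (NKX2-2, 1.04 FPKM) lay above the highest of the lower tier (RFX6, 0.667 FPKM), while within each tier neighbours in the order overlapped. NEUROG3 stood at rank 8 of 9 in control. It stood at rank 2 in IR with 0.704 ± 0.612 FPKM, behind INSM1 (0.829 ± 0.397), and at rank 3 in IR_Pra with 0.847 ± 0.260. Its IR mean joins 0.271 FPKM in IR 1 and 1.14 in IR 2. NEUROD1 went the other way, from rank 1 in control to rank 6 in IR (0.133 ± 0.101) and rank 5 in IR_Pra (0.600 ± 0.0893). In IR the lowest ranks belonged to RFX6 (0.0883 ± 0.0294), ISL1 (0.0424 ± 0.00138) and PAX6 (0.0373 ± 0.0150). PAX6 has several transcripts, and the length implied by its counts and FPKM varied by 23.2% between libraries, so its FPKM does not track its count exactly.

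**Figure D1:**
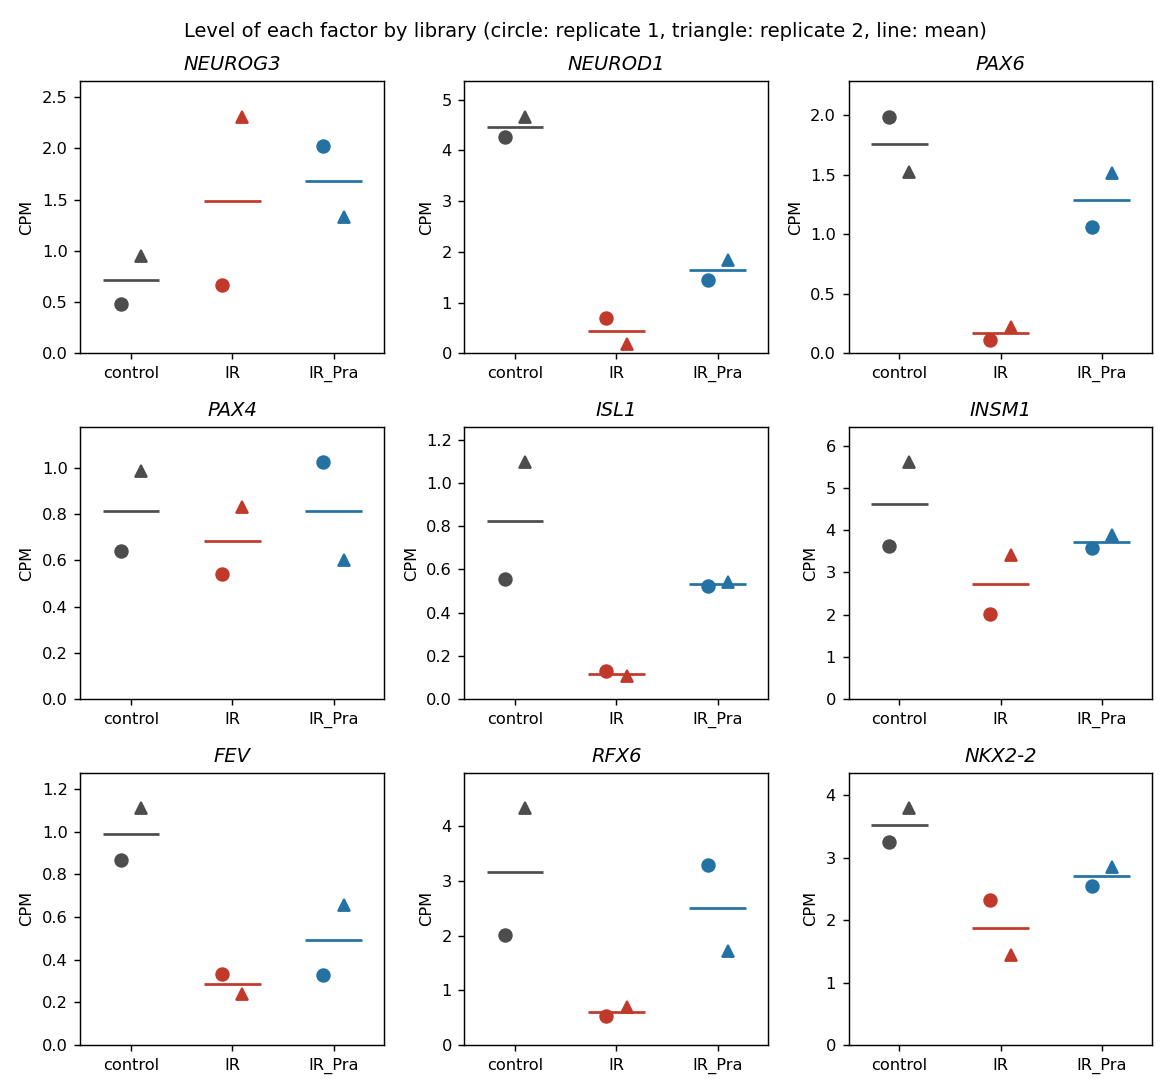
CPM (vertical axis, from 0, with a separate range for each gene) of the 9 factors in the 3 groups, with a circle for replicate 1, a triangle for replicate 2 and a line at the group mean. NEUROD1, PAX6, ISL1, RFX6 and FEV sit low in both IR libraries, and NEUROG3 has its highest value, 2.31 CPM, in IR 2.

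Control and IR animals were compared first, which addresses what the exposure had changed by day 14. PAX6 and NEUROD1 fell, and no factor rose. These 2 of 9 compare with 2.68% of all genes called lower and 6.06% called in either direction. The median log2 fold change of the 9 was -1.80, against 0.03 over all genes tested. At an unadjusted p under 0.05, 5 of the 9 were lower (13.8% of all genes were), and for 7 of the 9 both IR libraries lay below both controls (30.0% of all genes).

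NEUROD1 (Entrez 397283, chromosome 15, 87175629 to 87179953 on Sscrofa11.1) promotes terminal differentiation of hormone cells and is needed for cells that make secretin and cholecystokinin. It had 4.26 and 4.67 CPM in the controls, 0.687 and 0.185 in IR 1 and IR 2, and 1.45 and 1.84 in the IR_Pra libraries. The 3 groups did not overlap, and IR 2 was the lowest library. The fall from control to IR was -3.38 ± 0.66 (adjusted p = 0.0472).

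PAX6 (Entrez 100514152, chromosome 2, 28971565 to 29001149) activates the proglucagon gene and other hormone genes. Its CPM was 1.99 and 1.52 in the controls, 0.111 and 0.224 in IR, then 1.06 and 1.52 in IR_Pra. The IR libraries held only 6 and 17 reads of it, against 115 and 96 in control. The fall from control to IR was -3.34 ± 0.58 (adjusted p = 0.0413).

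Both calls rested close to the threshold. The fold changes stayed between -4.58 and -2.70 for NEUROD1 and between -3.95 and -2.96 for PAX6 when any 1 library was left out, but both calls were lost without control 1, control 2, IR_Pra 1 or IR_Pra 2, with adjusted p from 0.104 to 0.242. They held without IR 1 and without IR 2. The PAX6 call was also lost with limma voom (adjusted p = 0.0552), and the NEUROD1 call with the length trend removed (0.0504) or the older edgeR fit (0.0561). Both were lost with scaling by library size alone (0.0506 and 0.0516) and in a fit of only the 4 libraries compared (0.117 and 0.102). With libraries scaled to the epithelial genes, which raised the median of all genes by 1.57, the fold changes were -2.47 (adjusted p = 0.219) and -2.13 (adjusted p = 0.30).

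ISL1 (Entrez 100511417, chromosome 16, 30962994 to 30974201), which takes part in the differentiation of several hormone cell types, did not pass. It had 0.554 and 1.10 CPM in the controls, 0.130 and 0.106 in IR, then 0.521 and 0.544 in IR_Pra. Both IR values, which are 7 and 8 reads, lay below all other libraries (-2.80 ± 0.66, adjusted p = 0.0611). RFX6 (Entrez 102161990, chromosome 1, 44765451 to 44826884), a factor needed for enteroendocrine differentiation and for the incretin GIP, did not pass either. It had 2.01 and 4.33 CPM in the controls, 0.520 and 0.700 in IR, then 3.30 and 1.73 in IR_Pra. Its controls differed from each other by more than those of NEUROD1 or PAX6, and both IR libraries lay below the other 4 (-2.37 ± 0.59, adjusted p = 0.0672). With DESeq2 both were called lower, at adjusted p = 0.00755 for ISL1 and 0.00293 for RFX6.

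FEV (Entrez 110257031, chromosome 15, 121005279 to 121008748) marks serotonin-producing neurons and enterochromaffin cells. It had 0.866 and 1.11 CPM in the controls, 0.334 and 0.238 in IR, then 0.328 and 0.656 in IR_Pra. All 4 irradiated libraries lay below both controls, and IR_Pra 1 was just under IR 1 in CPM but above it in FPKM (0.460 and 0.385). From control to IR the difference was -1.80 ± 0.60 (adjusted p = 0.117). NKX2-2 (Entrez 100626520, chromosome 17, 29275656 to 29279572), which directs the choice between hormone cell types, had 3.25 and 3.79 CPM in the controls, 2.32 and 1.44 in IR, then 2.55 and 2.85 in IR_Pra. The groups did not overlap, but the difference between IR and control did not pass (-0.91 ± 0.40, adjusted p = 0.191).

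INSM1 (Entrez 100511966, chromosome 17, 28379529 to 28382554) had 3.62 and 5.60 CPM in the controls, 2.01 and 3.42 in IR, then 3.57 and 3.88 in IR_Pra. Its IR libraries were the lowest 2, with IR 2 just under the lower control (-0.76 ± 0.43, adjusted p = 0.279). PAX4 (Entrez 100523579, chromosome 18, 20675874 to 20680315), which acts early and favours serotonin and somatostatin cells, had 0.641 and 0.984 CPM in the controls, 0.539 and 0.832 in IR, then 1.02 and 0.600 in IR_Pra. Its 3 groups overlapped (-0.24 ± 0.56, adjusted p = 0.804). Scaled to the epithelial genes, NKX2-2 (0.37), INSM1 (1.0) and PAX4 (1.23) had positive log2 fold changes.

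NEUROG3 (Entrez 110256612, chromosome 14, 72604203 to 72606362) was, with TMM scaling, the only factor of the 9 with a positive log2 fold change in IR, and it did not pass. It had 0.485 and 0.953 CPM in the controls, 0.669 and 2.31 in IR, then 2.03 and 1.33 in IR_Pra. IR 1 lay between the controls, and IR 2 was the highest of all 6 libraries (1.06 ± 0.72, adjusted p = 0.368). Without IR 2 the log2 fold change was -0.12. NEUROG3 lies inside the annotated span of C14H10orf35 (72558826 to 72646748), and the sources used here do not say whether counting used strand. That gene had 4.40 and 7.99 CPM in the controls, 6.82 and 2.56 in IR, then 1.78 and 3.77 in IR_Pra, so it was lowest in IR_Pra 1 and IR 2, where NEUROG3 was highest. No other factor of the 9 overlapped an annotated gene.

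**Figure D2:**
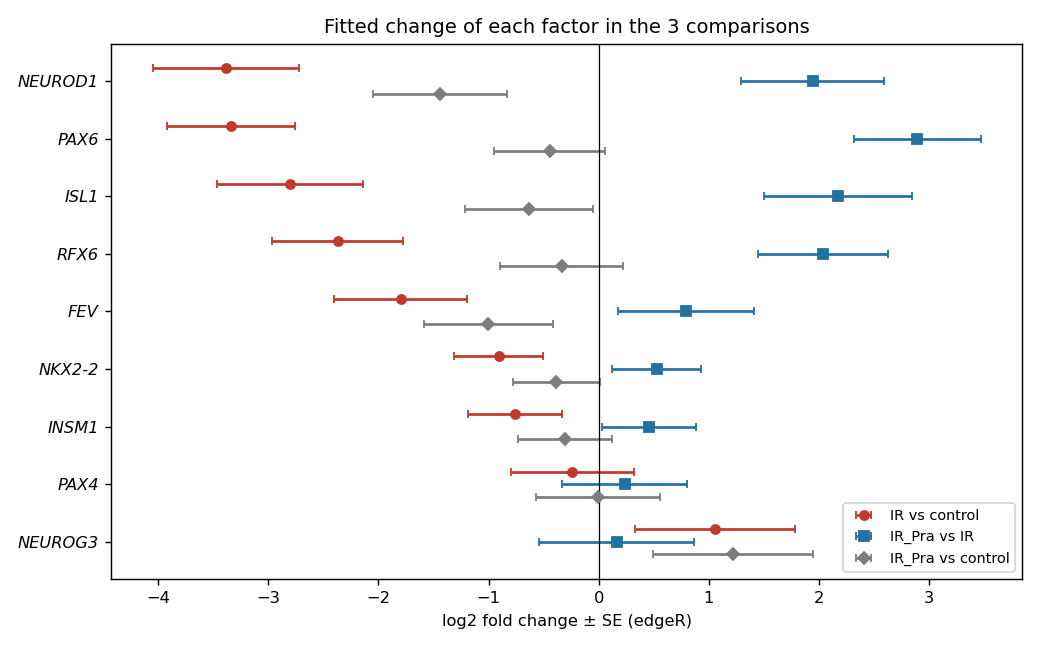
Fitted log2 fold change (horizontal axis) of each factor with its SE (bars) in the 3 comparisons, ordered by the change from control to IR. NEUROD1 and PAX6 lie furthest to the left for IR vs control, at -3.38 and -3.34, and NEUROG3 lies to the right at 1.06.

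Both IR libraries contributed to the lower values, in different epithelial settings. In IR 1 the epithelial genes had a median log2 difference from the control mean of -0.07, and in IR 2 of -2.14. The mean over the same genes was -0.42 in IR 1 and -2.37 in IR 2. Single epithelial genes were far below control in IR 1 too, such as HNF4G (5.74 CPM) and KLF5 (14.5 CPM). Against the same control mean, the differences in IR 1 were -3.61 for PAX6, -2.64 for NEUROD1, -2.43 for RFX6, -2.31 for ISL1, -1.46 for FEV, -1.15 for INSM1, -0.59 for NKX2-2, -0.53 for PAX4 and -0.03 for NEUROG3. In IR 2 they were -4.36 for NEUROD1, -2.78 for PAX6, -2.55 for ISL1, -2.03 for RFX6, -1.90 for FEV, -1.27 for NKX2-2 and -0.39 for INSM1, with PAX4 at 0.06 and NEUROG3 at 1.71. Of the 7 factors below control in both, PAX6, RFX6 and INSM1 were thus lower in IR 1, and NEUROD1, ISL1, FEV and NKX2-2 in IR 2. Markers of other tissue differed too: of 12 smooth muscle and stromal markers 1 rose (ACTA2), none was at 0 in any library, and they summed to 6981 and 13932 CPM in the controls, 37420 and 86413 in IR, then 24493 and 16783 in IR_Pra. The part of these other cells in the factors' values was not tested.

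Set against the epithelial gene list, the 2 IR libraries differed less for NEUROD1 and more for every other factor. Each factor's log2 CPM was set against the mean log2 CPM of the 19 epithelial genes, and the control mean of that difference was subtracted. Relative to control, the list mean itself was at -0.42 in IR 1 and -2.37 in IR 2. It includes HNF4G and KLF5, which fell from control to IR, so it is not a pure measure of epithelial RNA. NEUROD1 was then at -2.22 in IR 1 and -1.99 in IR 2, and at -1.56 and -1.14 in the IR_Pra libraries. PAX6 was at -3.19 in IR 1 but -0.41 in IR 2, ISL1 at -1.89 and -0.17, and RFX6 at -2.01 and 0.35. NEUROG3 was at 0.40 in IR 1 and 4.09 in IR 2. In the same order FEV was at -1.04 and 0.47, INSM1 at -0.73 and 1.98, NKX2-2 at -0.17 and 1.11, and PAX4 at -0.11 and 2.44. Of the 4 factors lowest in IR, only NEUROD1 was at least 1 log2 unit below control in both IR libraries on this scale.

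**Figure D3:**
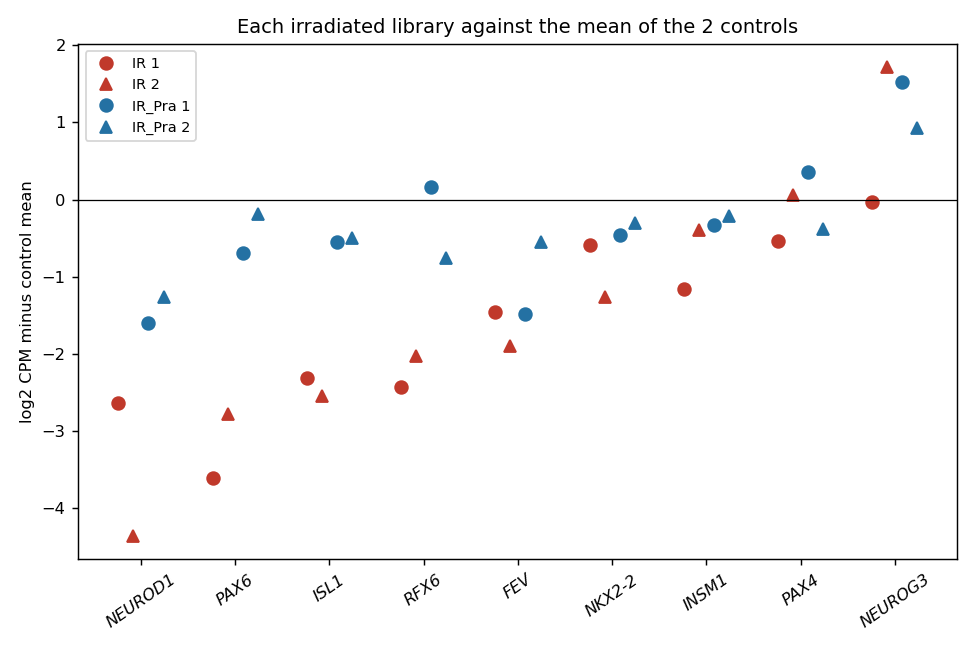
Log2 CPM of each factor in the 4 irradiated libraries minus the mean of the 2 controls (vertical axis, 0 is the control mean), with red for IR, blue for IR_Pra, circles for replicate 1 and triangles for replicate 2. NEUROG3 at the right is near or above the control mean, between -0.03 and 1.71, while NEUROD1 at the left is between -4.36 and -1.26.

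Irradiated libraries held fewer reads of the other factors for each NEUROG3 read. A ratio of 2 genes' reads within 1 library does not depend on how libraries are scaled, and this measure was chosen after the values had been seen. NEUROD1 had 8.79 and 4.90 reads per NEUROG3 read in the controls (95% exact binomial intervals 5.93 to 13.5 and 3.70 to 6.58). It had 1.03 in IR 1 (0.632 to 1.67) and 0.0800 in IR 2 (0.0428 to 0.138). In the IR_Pra libraries it had 0.714 (0.524 to 0.970) and 1.38 (1.01 to 1.90). The intervals cover counting error only. PAX6 went from 4.11 and 1.60 reads per NEUROG3 read in control to 0.167 and 0.0971 in IR and 0.524 and 1.14 in IR_Pra.

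For all 8 other factors the ratio to NEUROG3 was lower in each of the 4 irradiated libraries than in both controls, and 27.3% of all other genes tested had this pattern too. The 8 ratios share their NEUROG3 reads, so they are not separate observations. NKX2-2 had 3.98 in control 2 and 3.47 in IR 1, and PAX4 had 1.03 and 0.806. In IR 1 the intervals of NKX2-2 and PAX4 overlapped those of both controls. Of the reads of all 9 factors together, NEUROG3 took (with 95% exact binomial intervals) 2.74% (1.83 to 3.94) and 3.96% (3.03 to 5.07) in control, 9.14% (6.48 to 12.4) and 24.4% (21.3 to 27.8) in IR, and 12.8% and 8.91% in IR_Pra.

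**Figure D4:**
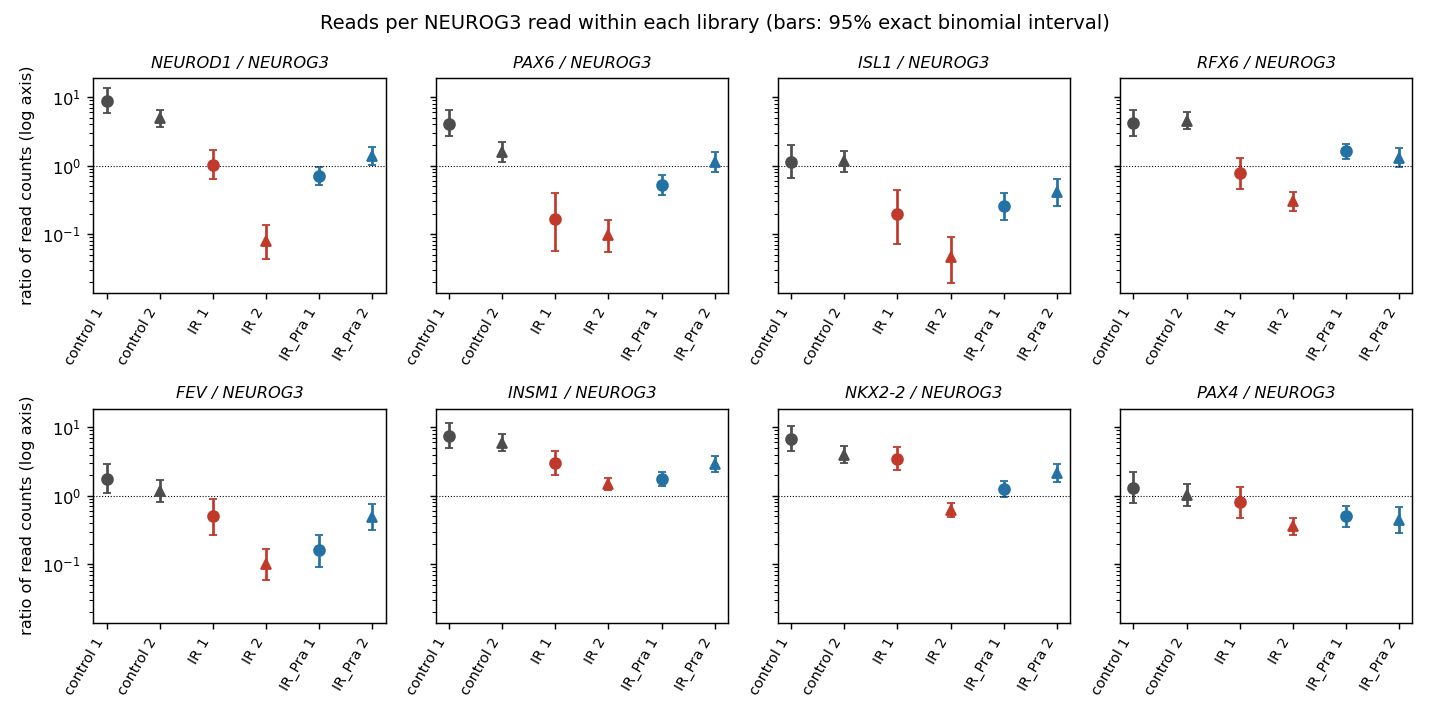
Reads of each of the 8 other factors per NEUROG3 read within each library (log vertical axis, bars are 95% exact binomial intervals, dotted line at 1). Control libraries (grey) lie highest in every panel, and IR 2 gives the lowest value in every panel, such as 0.0800 for NEUROD1.

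IR_Pra and IR animals differed in the drug. No factor passed, while 1 gene of 18197 (0.00550%) did. All 9 log2 fold changes were positive, as were 8932 of all 18197, although scaling to the epithelial genes, which moved the median of all genes by -1.51, made those of NEUROG3, INSM1, PAX4, NKX2-2 and FEV negative. The median of the 9 was 0.79 against -0.02 over all genes. For 6 of the 9, both IR_Pra libraries lay above both IR libraries (27.3% of all genes). By FPKM, FEV was a further one (7 of the 9, against 32% of all genes). Of the 9, 4 had an unadjusted p under 0.05 with a higher value (11.7% of all genes). Those 4 were PAX6 (2.89 ± 0.58, adjusted p = 0.0832), ISL1 (2.17 ± 0.67, adjusted p = 0.131), RFX6 (2.03 ± 0.59, adjusted p = 0.121) and NEUROD1 (1.94 ± 0.65, adjusted p = 0.147). DESeq2 called PAX6 (adjusted p = 0.000696) and RFX6 (adjusted p = 0.0204) higher. With 1 library left out, the NEUROD1 value ran from 1.26 (without IR 2, adjusted p = 0.147) to 3.14 (without IR 1, adjusted p = 0.0272), with adjusted p up to 0.435, and edgeR called it only without IR 1. FEV (0.79 ± 0.62), NKX2-2 (0.52 ± 0.40), INSM1 (0.46 ± 0.43), PAX4 (0.23 ± 0.56) and NEUROG3 (0.16 ± 0.71) differed by less than 2 standard errors. This comparison uses the same IR libraries as the one above, so its values are not independent of those.

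Against control, the IR_Pra libraries showed no factor past the threshold, and no gene of all 18197 passed by edgeR (0%). DESeq2 called 65 genes and none of the 9. None of the 9 had an unadjusted p under 0.05, where 3.42% of all genes had. NEUROD1 was furthest from control, at 1.64 ± 0.276 CPM against 4.46 ± 0.289 (-1.44 ± 0.61, unadjusted p = 0.0558 and adjusted p = 1.0 by edgeR). For 5 of the 9 (NEUROD1, PAX6, ISL1, FEV and NKX2-2) both IR_Pra libraries lay below both controls (20.0% of all genes). For PAX6 and ISL1 this held with TMM scaling alone: PAX6 had 1.519 CPM in IR_Pra 2 and 1.524 in control 2, and ISL1 had 0.544 in IR_Pra 2 and 0.554 in control 1. By FPKM, or by CPM from library size alone, both overlapped with control, which left NEUROD1, FEV and NKX2-2 (3 of the 9). On those scales 15.2% and 15.1% of all genes had this pattern. NEUROG3 was the 1 factor with both IR_Pra libraries above both controls (20.8% of all genes; 1.22 ± 0.73). RFX6 (-0.34 ± 0.56), INSM1 (-0.31 ± 0.42) and PAX4 (0.00 ± 0.56) overlapped with control.

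Across all 3 groups, 5 factors (NEUROD1, PAX6, ISL1, FEV and NKX2-2) had all 4 irradiated libraries below both controls in TMM-scaled CPM, a pattern of 10.7% of all genes, and 3 (NEUROD1, FEV and NKX2-2) did by FPKM (9.11% of all genes) and by CPM from library size alone (8.98%). IR lay below IR_Pra and IR_Pra below control with no overlap for NEUROD1, NKX2-2, PAX6 and ISL1 in TMM-scaled CPM (4 of 9, and 6.37% of all genes). On the other 2 scales the order held for NEUROD1, NKX2-2 and FEV (3 of 9). That compares with 5.69% of all genes by FPKM and 5.75% by CPM from library size alone. NEUROD1 and NKX2-2 thus followed the order on each of the 3 scales.

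Likeness of pattern was measured as Pearson's r of log2 CPM over the 6 libraries, against 15031 other genes (15032 for PAX4, ISL1 and FEV, whose own level is lower) of at least 1 CPM on average. It describes 6 points that share group structure and depth. The profile most like that of PAX6 was FBXL14 (r = 0.999), followed by ZFYVE9 and PRKCH (both r = 0.998). For NEUROD1 it was LOC100154179, annotated as a Golgi pH regulator (r = 0.998), followed by LOC110258138 (r = 0.997) and LRRC75A (r = 0.996). For NEUROG3 it was LOC100519283 (r = 0.985), followed by NCAM2, a neural cell adhesion molecule (r = 0.985), and ZSCAN31 (r = 0.979). How common such likeness was differed between factors: 542 genes (3.61%) reached r of at least 0.95 with PAX6, 295 (1.96%) with NEUROD1, 289 (1.92%) with NKX2-2, 202 (1.34%) with ISL1, 161 (1.07%) with RFX6, 47 (0.313%) with FEV, 44 (0.293%) with INSM1, 42 (0.279%) with NEUROG3 and 10 (0.0665%) with PAX4. The closest to the others were HBP1 for ISL1 (r = 0.994), RNF103 for NKX2-2 (r = 0.997), FAM8A1 for RFX6 (r = 0.995), SH2D1B for FEV (r = 0.995), KIF16B for INSM1 (r = 0.998) and LOC100514656 for PAX4 (r = 0.993).

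Upstream of NEUROG3, the factor ATOH1 opens the secretory fate as Notch signalling falls. ATOH1 had 39.6 and 30.3 CPM in the controls, 12.7 and 8.32 in IR, then 34.7 and 24.6 in IR_Pra. It fell from control to IR (-1.73 ± 0.34, adjusted p = 0.0463), whereas NEUROG3 was highest in the library where ATOH1 was lowest, IR 2. Of 12 Notch and early secretory genes tested, 1 fell (ATOH1) and 1 rose, HES6, a Hes-family factor that opposes HES1 (9.35 and 9.70 CPM in control, 22.1 and 40.4 in IR; 1.71 ± 0.35, adjusted p = 0.0489). Their median was -0.23. HES1, the Notch-induced repressor of NEUROG3, had 12.5 and 18.2 CPM in the controls, 17.6 and 13.8 in IR, then 19.9 and 17.5 in IR_Pra, and the Notch ligand JAG1 was at -0.69 ± 0.26 (adjusted p = 0.142). HES1 is named outside the rule for this list, as the factor known to act on NEUROG3, after its values were seen.

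Of 18 other endocrine lineage transcription factors, 15 were tested in IR vs control, and 1 fell and none rose (median -0.39). TOX3 fell from 19.9 and 19.5 CPM in control to 4.09 and 3.49 in IR (-2.38 ± 0.27, adjusted p = 0.0359), and had 13.7 and 11.6 CPM in IR_Pra. PROX1 (-1.48 ± 0.40, adjusted p = 0.0776), the pioneer factor FOXA1 (-1.16 ± 0.36, adjusted p = 0.10) and RFX3, a relative of RFX6 (-1.07 ± 0.42, adjusted p = 0.155), did not pass. By edgeR none of the 15 passed in the comparisons with IR_Pra. At an unadjusted p under 0.05, 3 differed between IR_Pra and IR and 1 between IR_Pra and control.

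Genes of the hormone granule and its release did not follow the 9 factors as a group. Of 26 listed, 25 were tested, with a median of 0.88 in IR vs control, and 3 rose and 3 fell. PCSK1, the convertase that cuts hormone precursors, fell from 7.86 and 9.89 CPM in control to 2.21 and 2.58 in IR (-1.89 ± 0.34, adjusted p = 0.0423). RIMBP2, an active-zone protein, fell from 22.9 and 22.8 CPM to 1.10 and 2.89 (-3.51 ± 0.51, adjusted p = 0.0370) and had 4.67 and 5.10 CPM in IR_Pra. SYT7, a calcium sensor of exocytosis, was the third to fall (-1.70 ± 0.33, adjusted p = 0.0465). Those that rose were PCSK1N, an inhibitor of PCSK1 (3.49 ± 0.46, adjusted p = 0.0370), the vesicle protein SYP (2.15 ± 0.30, adjusted p = 0.0370) and PTPRN, a granule membrane protein (1.97 ± 0.36, adjusted p = 0.0426). SYT7 and PTPRN were named after their values were seen. CHGA, named above as a check, had 302 and 179 CPM in the controls, 230 and 107 in IR, then 205 and 250 in IR_Pra. Its groups overlapped, and its edgeR value from control to IR was -0.51 ± 0.45 (adjusted p = 0.475).

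Neurons also make genes of the granule and its release, of which 3 rose and 3 fell here. Most neuronal markers were higher in the IR libraries. Of 19 enteric neuron markers tested, 18 had a positive log2 fold change, with CHAT as the exception (-0.92 ± 0.84). Of the 19, 3 rose (UCHL1, PRPH and SLC18A3), and the median was 1.93. The markers summed to 101.7 and 126.9 CPM in the controls, 322.8 and 595.0 in IR, then 149.4 and 125.4 in IR_Pra, and none was at 0 in any library. The part of neuronal RNA in the granule genes, and in factors that neurons can also express such as FEV and ISL1, was not tested. Of 12 islet and acinar pancreas markers in the table, 5 had 0 reads in every library, and insulin (INS) had 2 reads in all 6 libraries together. The 4 that passed the filter (CEL, CELA2A, CPA1 and MAFA) all had positive log2 fold changes from control to IR (median 1.06), and none passed the test or had an unadjusted p under 0.05. CEL had 60 and 170 reads in the controls and 102 and 420 in IR, CELA2A 18 and 187 against 35 and 319, and CPA1 21 and 16 against 117 and 33. The part of pancreatic RNA in the factors' values was not tested.

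Hormone genes were uneven. Of 15 genes for hormones and amine synthesis, 13 were tested and none passed in any comparison by edgeR (at an unadjusted p under 0.05, 4 did in IR vs control, 3 in IR_Pra vs IR and 3 in IR_Pra vs control). TAC1, which encodes substance P and is also made by enteric neurons, had 0.952 and 1.52 CPM in the controls, 4.42 and 9.22 in IR, then 2.76 and 3.41 in IR_Pra. Its value from control to IR was 2.46 ± 0.51 (adjusted p = 0.0505). Ghrelin (GHRL) had 0.433 and 1.02 CPM in control and 0 reads in both IR libraries, where 3 reads would be 0.0557 and 0.0396 CPM, and 0.0772 and 0.281 CPM in IR_Pra. TPH1, which makes serotonin in enterochromaffin cells, had 2.58 and 3.64 CPM in the controls, 1.23 and 0.858 in IR, then 4.36 and 2.96 in IR_Pra. Its IR vs control value was -1.58 ± 0.44 (adjusted p = 0.0801). Proglucagon (GCG), a target of PAX6, had 95.9 and 99.2 CPM in the controls, 167 and 25.0 in IR, then 177 and 151 in IR_Pra. Its 2 IR libraries thus lay on opposite sides of control, while PAX6 was low in both. Somatostatin (SST) had 35.8 and 46.9, 60.2 and 74.9, and 24.9 and 31.8 CPM in the same order, with 0.71 ± 0.27 from control to IR (adjusted p = 0.144). Neurotensin (NTS) had 182 and 211, 162 and 6.93, and 41.7 and 61.5 CPM. PYY had 86.1 and 74.9, 68.3 and 4.05, and 27.1 and 43.8. CCK had 7.12 and 5.38, 2.53 and 3.59, and 1.815 and 3.41. Secretin (SCT) had 0.519 and 0.238, 0.873 and 0, and 0 and 0.319 CPM, with 0.15 ± 1.70 from control to IR. GIP had 9.21 and 24.9, 12.2 and 0.541, and 0.985 and 5.72. For NTS, PYY, CCK and GHRL all 4 irradiated libraries lay below both controls (10.7% of all genes). The IR libraries of GIP overlapped with control. CCK, SCT and GIP were named after their values were seen. PDX1, a factor of the proximal small bowel, named after its values were seen, had 2.19 CPM in IR 1, while the remaining 5 libraries ranged from 0.0386 to 0.623 CPM. Its part in these differences was not tested.

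Factors of the other secretory lineages moved in both directions. Of 10 goblet, Paneth and tuft cell factors tested in IR vs control, 2 fell and 1 rose (median -0.35). POU2F3, which sets tuft cell identity, fell from 6.25 and 7.83 CPM to 0.520 and 0.726 (-3.49 ± 0.54, adjusted p = 0.0370). KLF4, a goblet cell factor, fell (-2.46 ± 0.50, adjusted p = 0.0489), and CREB3L1 rose (1.18 ± 0.22, adjusted p = 0.0437). Of 19 general epithelial genes, 2 fell and none rose (median -0.84): HNF4G, an enterocyte nuclear receptor, went from 213 and 193 CPM to 5.74 and 8.57 (-4.82 ± 0.39, adjusted p = 0.0331) and KLF5, a crypt factor, from 147 and 177 to 14.5 and 10.2 (-3.71 ± 0.30, adjusted p = 0.0331). A difference between the 9 factors and these lists was not tested, and neither was the part of stromal or other cells in these values, such as that of CREB3L1.

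**Figure D5:**
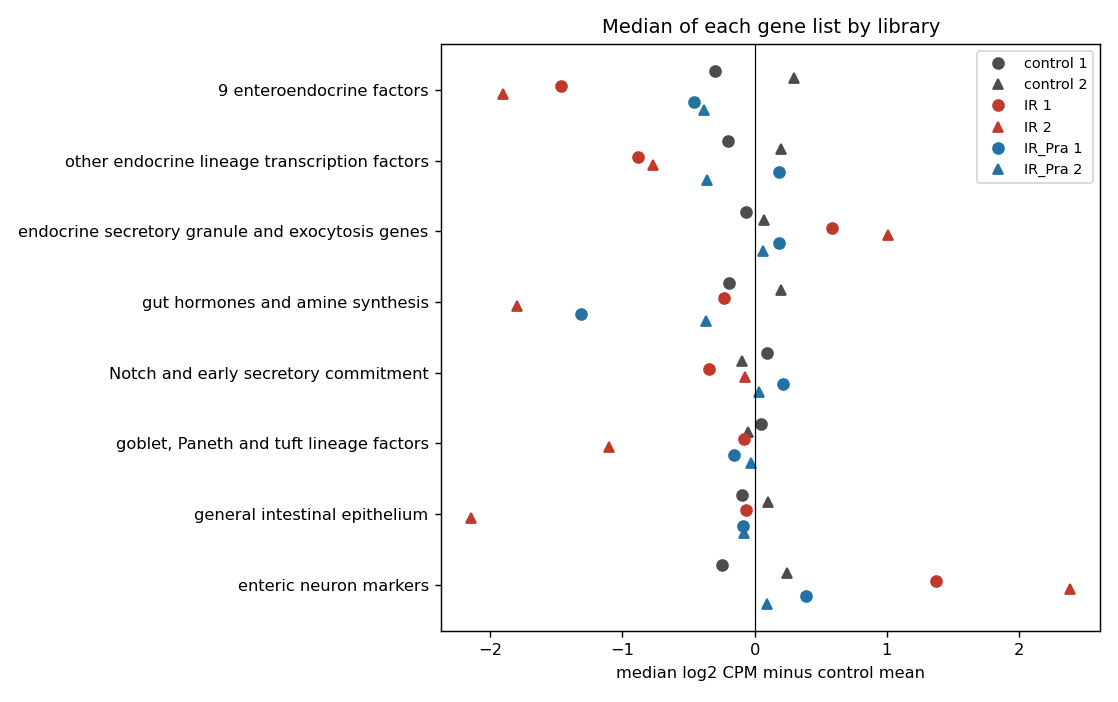
Median over each gene list of log2 CPM minus the control mean (horizontal axis) in the 6 libraries, with grey for control, red for IR, blue for IR_Pra, circles for replicate 1 and triangles for replicate 2. The 9 factors are low in both IR libraries (-1.46 and -1.90), and neuron markers are high in both (1.37 and 2.39). The median of the general epithelial genes is low in IR 2 (-2.14) and near control in IR 1 (-0.07).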

How the data were processed

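The deposited table gives a read count and an FPKM value per gene and library, per the file headers. According to the submitters' processing notes, the authors used bcl2fastq 2.20.0, Trimmomatic, HISAT2 2.1.0 and StringTie 2.1.3b, with the builds Sscrofa11.1 and GRCh38 named. The step that made the counts and the role of GRCh38 are not given in the sources used here. Rows without a gene name (24, at most 0.0385% of a library's counts) were left out. Entrez IDs of all 30352 named rows matched RefSeq on Sscrofa11.1, which gave the coordinates. No sequences were used here, so the planned promoter and protein comparisons were not run.

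The count model was edgeR 4.0.16, run in R 4.3.3: filterByExpr by group, TMM factors, 1 quasi-likelihood fit of all 6 libraries with a term per group (3 residual degrees of freedom, common biological coefficient of variation 0.431), two-sided F tests, Benjamini-Hochberg adjustment over all genes tested, threshold 0.05. SEs derive from the F statistic. Log2 CPM used a prior count of 2. With 2 animals against 2, an exact permutation test cannot go below p = 0.333, so none was used. The fit was tried on simulated data with less spread than these (dispersion 0.05) and changes only in genes above 1 CPM. It recovered 92.5% of 200 changed genes, and 4.15% of its calls were false. That trial does not cover the spread or the lowest counts of these data. Alternatives used DESeq2 1.42.0, limma 3.58.1, other scalings and filters, and each library left out. Genes of the other lists were named as at most 4 with the smallest unadjusted p in any comparison, hormones also by level, and exceptions are marked where they occur. The members and lists were chosen with earlier results of these data known.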

Additional observations from a re-analysis of the deposited data

How the results depend on the processing

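Of 1103 genes called between IR and control, and 2 of the 9 factors, DESeq2 called 3828 and 4, limma voom 931 and 1, and scaling by library size alone 475 (182 higher, 293 lower, against 616 and 487) and 0. Scaling to the epithelial genes called 902 (881 higher, 21 lower) and 0. Limma on log2(FPKM + 1) called 403 genes and on log2(FPKM + 0.1) 543. Removing the length trend, or the older edgeR fit, left 1 factor called, and a fit of only the 4 libraries compared called 0 genes and 0 factors. With 1 library left out, where a lone sample is assumed to vary like the other groups, 0 to 5342 genes and 0 to 2 factors were called. Both counts were 0 without either control or either IR_Pra library, and 5342 genes were called without IR 1 and 3284 without IR 2. The cause was not tested.

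For IR_Pra vs IR, with 1 gene and 0 factors called, DESeq2 called 2543 and 2, voom 0 genes, log2(FPKM + 0.1) 10, library size alone 2, epithelial scaling 10, no filter 2, the 4 libraries alone 0, and leaving out 1 library 0 to 3728 genes and 0 to 1 factor. For IR_Pra vs control, with 0 genes called, DESeq2 called 65 and epithelial scaling 2.

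The replicate numbers only name the samples (correlations of same-numbered deviations 0.08, -0.11 and -0.09 between pairs of groups). With the replicate block, 0 genes and 0 factors were called in IR vs control and 0 genes in IR_Pra vs IR.

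NEUROD1 and PAX6 were lower in IR than control in all 19 settings (-4.58 to -1.18 and -3.95 to -0.56). Signs turned under epithelial scaling for PAX4 (1.23), INSM1 (1.0) and NKX2-2 (0.37) in IR vs control, and for NEUROG3 (-1.68), PAX4 (-1.20), INSM1 (-1.24), FEV (-0.24) and NKX2-2 (-0.69) in IR_Pra vs IR. PAX4 in IR_Pra vs control turned with log2(FPKM + 1) (0.0209) and log2(FPKM + 0.1) (0.0444), library size alone (0.0644), epithelial scaling (0.0316) and the replicate block (0.0306). Leaving out 1 library turned NEUROG3 (-0.12 to 1.67) and PAX4 (-0.60 to 0.16) in IR vs control, NEUROG3 (-0.46 to 1.33) and PAX4 (-0.25 to 0.59) in IR_Pra vs IR, and PAX4 (-0.45 to 0.35), INSM1 (-0.61 to 0.0508) and RFX6 (-0.90 to 0.33) in IR_Pra vs control. Low counts limit most of the factors, with as few as 6 reads for PAX6, 7 for ISL1, 14 for NEUROD1, 17 for FEV, 28 for NEUROG3 and RFX6, and 29 for PAX4 in 1 library. INSM1 and NKX2-2 had at least 108 and 109 reads in every library. Chosen after seeing the data, FPKM and CPM from library size alone each moved the count of factors below control in both IR_Pra libraries, and in all 4 irradiated libraries, from 5 to 3.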
